A study of Mus musculus with 52 samples.

Results

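The 10 genes described here are 5 epithelial genes (Krt7, Krt8, Krt18, Krt19 and Esrp1) and 5 mesenchymal genes (Vim, Fn1, Zeb1, Zeb2 and Snai2). They were chosen by name, and all 10 were found among the 24421 gene symbols counted in 52 RNA-seq libraries. The libraries came from 13 samples of cloned cells, named clones here, of the mouse inner medullary collecting duct line Cilia-APEX-IMCD3, with 4 technical replicate libraries each. The study used CRISPR base editing to place missense alleles of Wdr34 and Wdr60, which encode intermediate chains of the dynein-2 motor, and compared mutant with control clones separately for ciliated and non-ciliated cells. Ciliated samples comprised the mutant clones Wdr60 (p.Ala911Val), Wdr34 clone 1 and Wdr34 clone 3, for which the labels give no allele, and the control clones A4, D8, G7 and H12. In the non-ciliated state there were a Wdr60 mutant (p.Ala911Val), a Wdr34 mutant (p.Arg183Trp) and the control clones AB, 1, 2 and 3. The mutants are homozygous. By the study's methods the Wdr60 clone also carries a heterozygous synonymous change, and a further Wdr34 clone, p.Gly394Ser, which was sequenced only in the ciliated state, carries an unintended heterozygous glycine to aspartic acid change; the labels do not say which ciliated Wdr34 clone that is. All clones carry the Cilia-APEX transgene and, by the study's methods, received the base editor. Controls received a guide vector without a target, and each clone grew from 1 sorted cell. Control AB is titled AB_Co, whereas controls 1, 2 and 3 are titled BE_Co with their number. The study's text does not explain the AB prefix. The study's methods starve ciliated cells in 0.2% serum for 50 h, whereas the labels give medium with 10% FBS for all samples. The labels pair no control clone between states, but the study's methods speak of 4 control and 3 mutant clones in all, so that the same clones may have been sequenced in both states. The number 13 thus counts samples of a clone in a state and may exceed the number of distinct clones. Hence state, serum, clone and sequencing time cannot be told apart.

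Keratins 7, 8, 18 and 19 are the intermediate filament proteins of simple epithelia such as the collecting duct, where a type II keratin (Krt7 or Krt8) pairs with a type I keratin (Krt18 or Krt19). Vimentin, encoded by Vim, is the filament protein of mesenchymal cells. When epithelial cells turn mesenchymal, the zinc finger repressors Zeb1, Zeb2 and Snai2 bind E-box motifs in promoters of epithelial genes, Esrp1, a splicing factor of epithelial cells, is lost, and fibronectin (Fn1) is deposited in the matrix. Cultured tubule lines often express vimentin beside keratins, so that the balance of both groups is more informative than any of these genes alone.

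Krt7, Krt8 and Krt18 were all lowest in the same clones, and their promoters are shown because each holds the E-box CACCTG, the motif that Zeb and Snai factors recognise. The sequences are the 250 bases before the start of each gene, 5' to 3' on the gene's own strand, from RefSeq GRCm38.p6, with the motif in capitals.
Krt7 (chr15:101412153-101412402, plus strand): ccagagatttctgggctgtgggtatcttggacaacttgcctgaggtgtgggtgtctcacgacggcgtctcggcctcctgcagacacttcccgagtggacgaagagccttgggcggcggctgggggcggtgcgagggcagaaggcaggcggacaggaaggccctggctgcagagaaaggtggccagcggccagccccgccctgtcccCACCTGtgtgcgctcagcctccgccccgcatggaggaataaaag
Krt8 (chr15:102004343-102004592, minus strand): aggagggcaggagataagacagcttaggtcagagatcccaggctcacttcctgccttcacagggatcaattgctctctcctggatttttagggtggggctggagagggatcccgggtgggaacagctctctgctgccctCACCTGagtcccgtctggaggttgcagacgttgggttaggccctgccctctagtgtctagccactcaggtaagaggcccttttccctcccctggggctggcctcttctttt
Krt18 (chr15:102027966-102028215, plus strand): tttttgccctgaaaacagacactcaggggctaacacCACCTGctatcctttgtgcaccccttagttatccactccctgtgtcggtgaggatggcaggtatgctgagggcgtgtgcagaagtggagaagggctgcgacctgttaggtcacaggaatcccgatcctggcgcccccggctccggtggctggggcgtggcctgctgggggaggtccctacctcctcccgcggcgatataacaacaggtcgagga
CACCTG, read on both strands (CAGGTG on the other), began 44 bases before the start of Krt7, 111 before Krt8 and 214 before Krt18. Of 32851 windows of this length, 17.2% held it. The windows of Vim and Zeb2 did not contain these letters, and Krt19, Esrp1, Fn1, Zeb1 and Snai2 had no entry. A match is a description of the letters and not a measured binding site.

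Library totals ran from 14816218 to 28084979 counts, so that 1 CPM stood for 14.8 to 28.1 counts before scaling. The CPM given here were further scaled by TMM factors over all 52 libraries (0.909 to 1.09). Libraries of a clone differed by more than counting error (chi-square per degree of freedom 2.02 to 109, 78 pairs), and 0 pairs were identical. They are technical, so that tests over libraries measure technical spread, and clones were the samples of the tests between groups. Library 1 of the non-ciliated control AB stood furthest from its clone (root mean square log2 deviation 0.437, median library 0.215). The collecting duct origin was visible in part. Hoxb7, Tfcp2l1, Cdh16, Pax2 and Pax8 were counted in every library, whereas Aqp2, the vasopressin-regulated water channel, had at most 1 count and Calb1 had 0. Wdr34 and Wdr60 transcripts do not check the genotypes, since the alleles are missense; they ran from 21.7 to 49.5 and from 20.4 to 30.8 CPM over clones.

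Among the epithelial genes, 2 control clones stood apart. Krt7 in non-ciliated cells was 939 ± 172 CPM (SD, n = 4 libraries) in control AB, 805 ± 35.5 in control 3, 723 ± 23.4 in control 1 and 3.76 ± 0.586 in control 2, against 866 ± 22.9 in the Wdr60 and 626 ± 18.9 in the Wdr34 clone. Control 2 was far below the other 5 clones, with 49 to 80 counts per library. Krt7 in ciliated cells was 421 ± 6.68 CPM in control A4, 280 ± 10.4 in H12, 277 ± 17.9 in D8 and 3.65 ± 0.749 in G7, against 347 ± 96 in the Wdr60 clone, 265 ± 7.29 in Wdr34 clone 1 and 62.5 ± 4.62 in Wdr34 clone 3. G7 was lowest here and Wdr34 clone 3 next, below the other 5 clones. In bulk libraries, less RNA per cell and fewer cells with the gene cannot be told apart.

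Krt8 and Krt18 followed the same order at the low end. Krt8 in ciliated cells was 26.3 ± 2.19 CPM in G7, 372 ± 12.4 in H12, 783 ± 146 in A4 and 950 ± 38.5 in D8, and 557 ± 96.4, 537 ± 7.98 and 76.7 ± 4.1 in the Wdr60 clone and Wdr34 clones 1 and 3. In non-ciliated cells it was 41 ± 3.71 CPM in control 2 and 579 to 773 in the other 5 clones. Krt18, its type I partner, was 67.5 ± 5.68 CPM in G7, 148 ± 6.87 in Wdr34 clone 3 and 529 to 1238 in the other 5 ciliated clones, and 112 ± 2.17 in control 2 and 697 to 1048 in the other 5 non-ciliated clones. Both genes lie next to each other on chromosome 15 (Krt8 at 101996711-102004342, Krt18 at 102028216-102032026), and the handling of reads shared with similar copies is not given in the sources used here, which leaves some uncertainty in their counts.

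Krt19, the keratin without the usual tail domain, was 17.6 ± 2.84 CPM in G7 and 80.4 ± 4.56 in Wdr34 clone 3. It was 589 ± 41 in D8 and 480 ± 153 in A4, against 123 ± 7.89, 162 ± 1.94 and 171 ± 47.1 in H12, Wdr34 clone 1 and the Wdr60 clone. The ciliated clones thus had no common Krt19 level even without the lowest clones. In non-ciliated cells Krt19 was 32 ± 2.7 CPM in control 2 and 254 to 495 in the others.

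Esrp1 separated the low clones from each other. In ciliated cells it was 2.17 ± 0.656 CPM in G7 but 86.8 ± 3.2 in Wdr34 clone 3, and 157 to 204 in the other 5 clones. In non-ciliated cells it was 0.928 ± 0.153 CPM in control 2, with 13 to 20 counts per library, and 82.7 to 193 in the other 5. Wdr34 clone 3, low in keratins, thus had an Esrp1 level within the range of the non-ciliated clones.

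**Figure D1:**
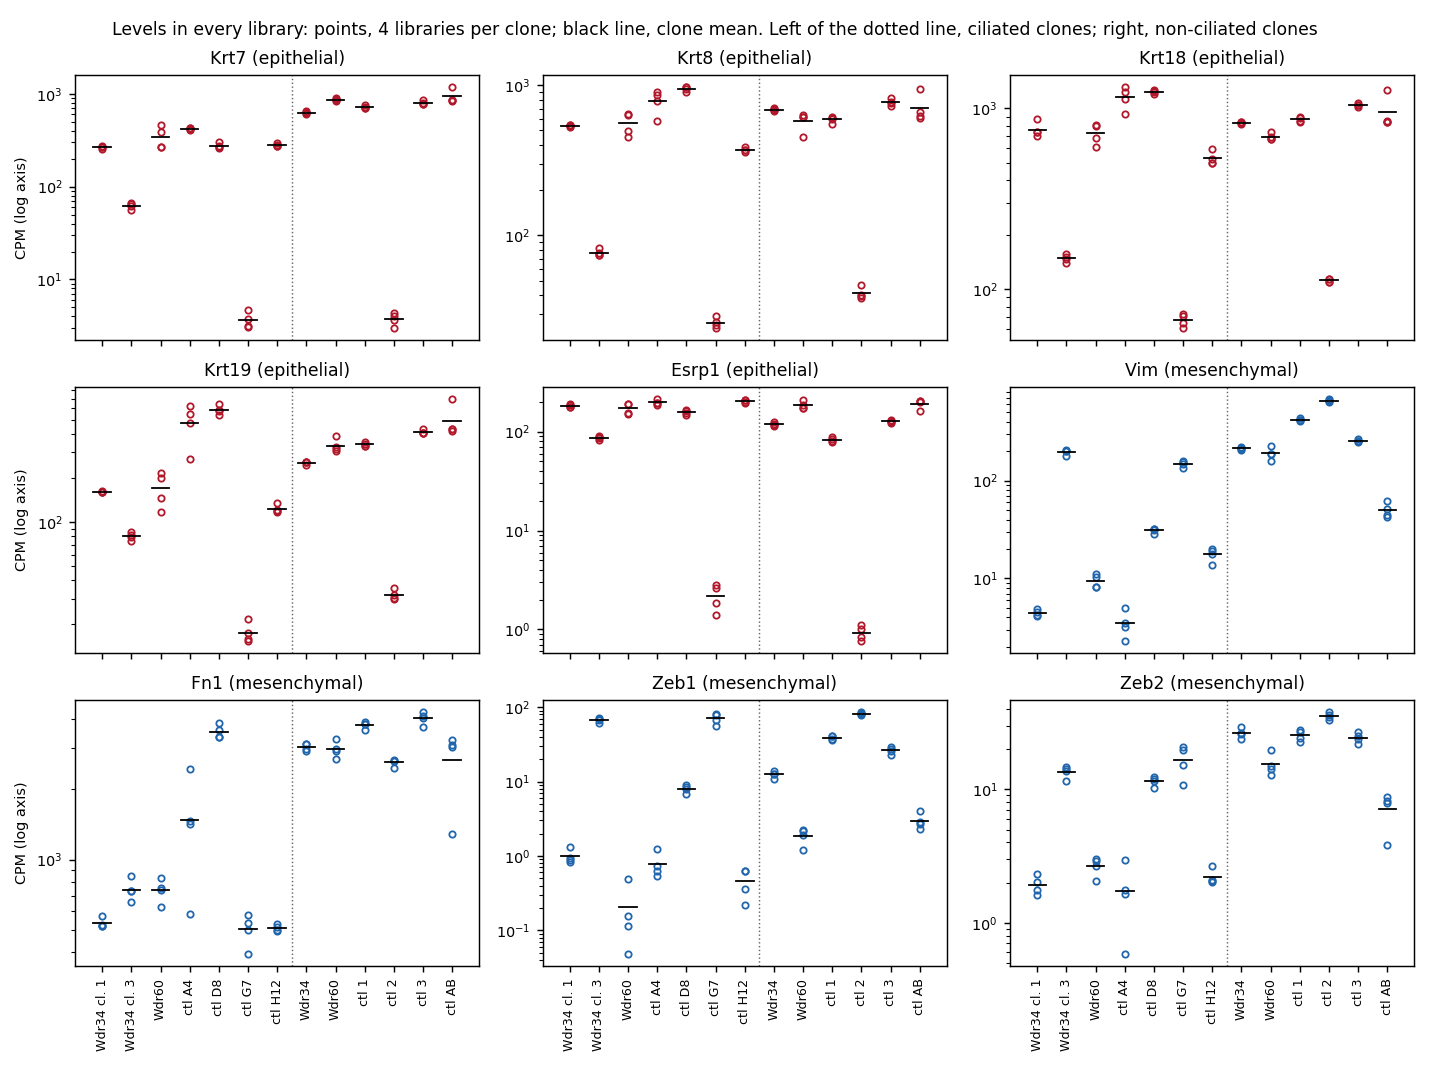
Normalised level (CPM, log axis) of 9 genes in every library, by clone, with ciliated clones left and non-ciliated clones right of the dotted line; points are libraries and black lines clone means. In the 5 epithelial panels G7 and control 2 lie lowest, with Krt7 at 3.65 and 3.76 CPM, and in the Zeb1 panel the same clones and Wdr34 clone 3 lie highest.

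Vim was lower in ciliated than in non-ciliated clones with a few exceptions. In ciliated cells it was 149 ± 11.6 CPM in G7, 3.48 ± 1.11 in A4, 17.6 ± 2.72 in H12 and 30.9 ± 1.85 in D8, and 197 ± 11.9, 9.49 ± 1.55 and 4.48 ± 0.342 in Wdr34 clone 3, the Wdr60 clone and Wdr34 clone 1. In non-ciliated cells it was 658 ± 14.1 CPM in control 2, 418 ± 11.3 in control 1, 255 ± 7.42 in control 3 and 50.1 ± 8.5 in AB, and 214 ± 6.28 and 190 ± 27 in the Wdr34 and Wdr60 clones. The highest clones were the keratin-low ones in both states, and AB was the lowest of its state.

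Zeb1 had the widest range of these genes. It was 70.6 ± 11.8 CPM in G7, 67.5 ± 4.43 in Wdr34 clone 3 and 8.07 ± 0.906 in D8, whereas Wdr34 clone 1, A4, H12 and the Wdr60 clone had 0.993, 0.789, 0.459 and 0.205 CPM, the last with 1 to 9 counts per library. In non-ciliated cells it was 81.7 ± 3.53 CPM in control 2, 38.9 ± 2.4 in control 1, 26.2 ± 2.69 in control 3 and 2.96 ± 0.762 in AB, and 12.6 ± 1.17 and 1.88 ± 0.459 in the Wdr34 and Wdr60 clones. G7 and Wdr34 clone 3 did not differ in Zeb1 beyond their libraries (log2 distance 0.10, SE 0.15, edgeR, BH-adjusted p = 0.605), while all 15 pairs of non-ciliated clones did.

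Zeb2 spread less. It was 16.6 ± 4.62, 13.6 ± 1.37 and 11.5 ± 0.886 CPM in G7, Wdr34 clone 3 and D8, and 1.74 to 2.65 in the other 4 ciliated clones. In non-ciliated cells it was 35.5 ± 1.99 CPM in control 2, 7.16 ± 2.27 in AB and 15.5 to 26.3 in the other 4. Its antisense neighbour Zeb2os had between 0 and 11 counts per clone; whether strand was used in counting is not given in the sources used here, so the 2 cannot be fully separated. Snai2 was near the floor, with 0 to 9 counts per library, at most 0.226 CPM in a clone mean (Wdr34 clone 3), and 0 counts in all libraries of A4 and Wdr34 clone 1. A count of 0 allows up to 3 counts.

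Fn1 did not follow the other mesenchymal genes. In ciliated cells it was 3538 ± 230 CPM in D8 and 1478 ± 760 in A4, whose libraries ran from 586 to 2444, whereas G7 had 502 ± 77.7, H12 507 ± 15.7, and the mutant clones 534 to 744. In non-ciliated cells it was 2608 ± 98.1 CPM in control 2, 2672 ± 930 in AB and 2968 to 4036 in the other 4. G7 and control 2, the keratin-low clones, thus had the lowest Fn1 means of their states, although neither differed beyond the libraries from the next clone (edgeR, BH-adjusted p = 0.973 and 0.9).

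Per transcript length, the balance of filament genes turned over in both low control clones. Vim was 67.8 CPM per kb in G7 and 300 in control 2, above Krt18, the highest keratin there, at 47 and 77.9. In Wdr34 clone 3, Vim at 89.9 CPM per kb lay just under Krt18 at 103. In the other 10 clones Krt18 was 368 to 861 CPM per kb and Vim 1.59 to 191. Zeb1 likewise exceeded Esrp1 per kb in control 2 (14.1 against 0.24) and in G7 (12.2 against 0.561), while Wdr34 clone 3 had 11.6 against 22.5.

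Many of these differences between clones were larger than the spread between libraries of 1 clone. In edgeR quasi-likelihood tests of single libraries, 152 of 189 tests of these genes between pairs of ciliated clones were called (BH-adjusted p under 0.05 over all genes), beside 50.2% of all gene tests, and 103 of 135 between non-ciliated clones, beside 47.1%. In ciliated clones, 20 of 21 pairs differed in Krt8 and in Vim and 13 of 21 in Zeb2. In non-ciliated clones, all 15 pairs differed in Zeb1 and 6 of 15 in Fn1. Neighbours in the order often did not differ. In Krt7, the non-ciliated clones AB, Wdr60, 3, 1 and Wdr34 were each indistinguishable from the next (adjusted p = 0.0979 to 0.329), and in the ciliated cells so were A4, Wdr60, H12, D8 and Wdr34 clone 1 (adjusted p = 0.0631 to 0.771). Because libraries are technical replicates, these tests say nothing of genotype.

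Whether single clones lean epithelial or mesenchymal was tested by fitting each clone against the control clones of its state (counts summed per clone, edgeR, called at a BH-adjusted p under 0.05 over all genes and an absolute log2 fold change of at least 1). With 1 clone in an arm, the lone clone is assumed to vary like the controls. For every clone other than control 2 and G7, the reference held 1 of these keratin-low clones. In AB, the SE of Krt7 was 2.13 with control 2 in the reference and 0.22 without it, as chosen after seeing the data. In control 2, all 5 epithelial genes fell against the other 3 controls, beside 0.905% of 13808 genes called (17 higher, 108 lower). Krt7 fell by 7.73 on the log2 scale (SE 0.35, edgeR, BH-adjusted p = 0.0104) and Esrp1 fell by 7.15 (SE 0.74, adjusted p = 0.0359). Krt8 fell by 4.03 (SE 0.28, adjusted p = 0.0178), Krt19 fell by 3.67 (SE 0.31, adjusted p = 0.0274) and Krt18 fell by 3.06 (SE 0.25, adjusted p = 0.0251). The mesenchymal genes were not called: the log2 fold change was 1.88 (SE 1.11) for Zeb1, 1.48 (SE 0.97) for Vim, 0.92 (SE 0.67) for Zeb2 and -0.41 (SE 0.32) for Fn1. Without control 3 in the reference, Krt18 and Esrp1 were no longer called (edgeR, BH-adjusted p = 0.0584 and 0.0506), and without AB, Zeb1 was called as higher.

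In G7, 3 of 9 genes tested fell against D8, H12 and A4, beside 2.41% of 13818 genes called (91 higher, 242 lower). Esrp1 fell by 6.46 on the log2 scale (SE 0.36, edgeR, BH-adjusted p = 0.00736), Krt7 fell by 6.42 (SE 0.48, adjusted p = 0.01) and Krt8 fell by 4.72 (SE 0.71, adjusted p = 0.0438). Krt18 and Krt19 had log2 fold changes of -3.84 (SE 0.65, edgeR, BH-adjusted p = 0.0598) and -4.45 (SE 1.08, adjusted p = 0.116) and did not pass; DESeq2 called both. Zeb1 at 4.45 (SE 1.41, edgeR, BH-adjusted p = 0.192) and Vim at 3.07 (SE 0.94, adjusted p = 0.182) did not pass either. Without A4 in the reference Krt8 was lost (edgeR, BH-adjusted p = 0.0925), and without D8 Zeb1 and Zeb2 were called as higher.

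In each of the other 11 clones, 0 of 9 or 10 genes tested were called, beside 0% of all genes (edgeR), with 78 to 710 genes at an unadjusted p under 0.05. In AB, Vim, Zeb1 and Zeb2 had log2 fold changes of -3.18 (SE 0.69), -4.04 (SE 0.90) and -1.97 (SE 0.37) against the other 3 controls, with an edgeR BH-adjusted p = 0.956 for each; DESeq2 on the same sums called all 3. In Wdr34 clone 3, Krt8, Krt18 and Krt7 had -2.80 (SE 1.85), -2.34 (SE 1.56) and -1.98 (SE 2.07) against the 4 controls, which included G7. With G7 out of the reference, as chosen after seeing the data, the values were -3.20 (SE 0.65), -2.72 (SE 0.60) and -2.39 (SE 0.37), with edgeR BH-adjusted p = 0.18, 0.198 and 0.135, still not called. DESeq2 on clone sums called 13 pairs of clone and gene over the 13 fits, against 8 by edgeR.

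**Figure D2:**
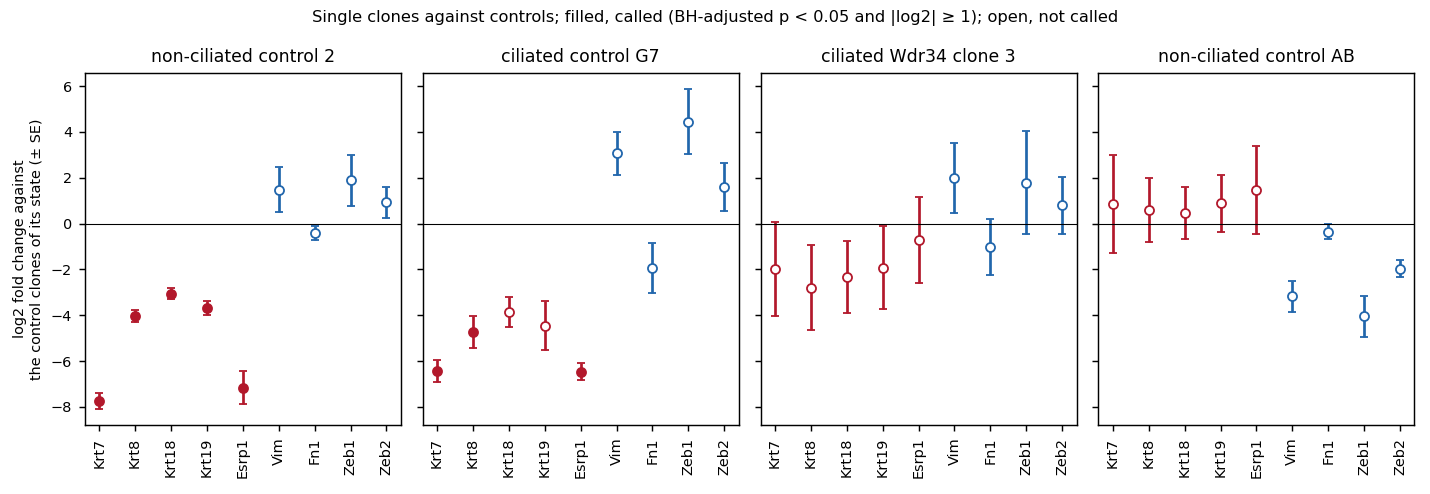
Log2 fold change with its SE (edgeR, clone sums) of 9 genes in 4 single clones against the control clones of their state; filled points were called. Krt7 at -7.73 and Esrp1 at -7.15 in control 2 are the lowest values shown, the mesenchymal genes are open in all 4 panels, and in AB Vim and Zeb1 lie at -3.18 and -4.04.

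To set clones side by side, the log2 CPM of each gene was taken relative to the median clone of its state and averaged over the 5 epithelial and the 5 mesenchymal genes, as a description without a test. Control 2, G7 and Wdr34 clone 3 had epithelial means of -4.97, -4.70 and -1.84 and mesenchymal means of 0.79, 2.26 and 2.62. D8 was high in both, at 0.67 and 1.62. AB had the lowest mesenchymal mean, -1.39, with an epithelial mean of 0.34. The other 8 clones lay between -0.22 and 0.70 in the epithelial and between -0.60 and 0.46 in the mesenchymal mean. Snai2, with its few counts, weighed as much in the mesenchymal mean as each other gene. Its deviation was 1.38 in the non-ciliated Wdr60 clone, whose Zeb1, Zeb2, Vim and Fn1 had -3.23, -0.69, -0.31 and -0.02. The mean of that clone is thus raised by Snai2. In Wdr34 clone 3, Snai2 (1.31), Fn1 (0.01) and Zeb2 (2.32) lay below the mesenchymal mean of 2.62, and Zeb1 (5.97) and Vim (3.49) above it. With these 10 genes both ends of the ordering, G7 (-6.96, epithelial minus mesenchymal) and AB (1.73), were control clones. With 33 other epithelial and 22 other mesenchymal genes from lists of the field, the same difference was -3.24 in control 2, -3.14 in G7, -2.15 in Wdr34 clone 3 and -0.48 to 0.64 in the other 10 clones. The epithelial end was then the non-ciliated Wdr60 mutant (0.64), with AB at 0.61, whose mesenchymal mean was -0.13.

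**Figure D3:**
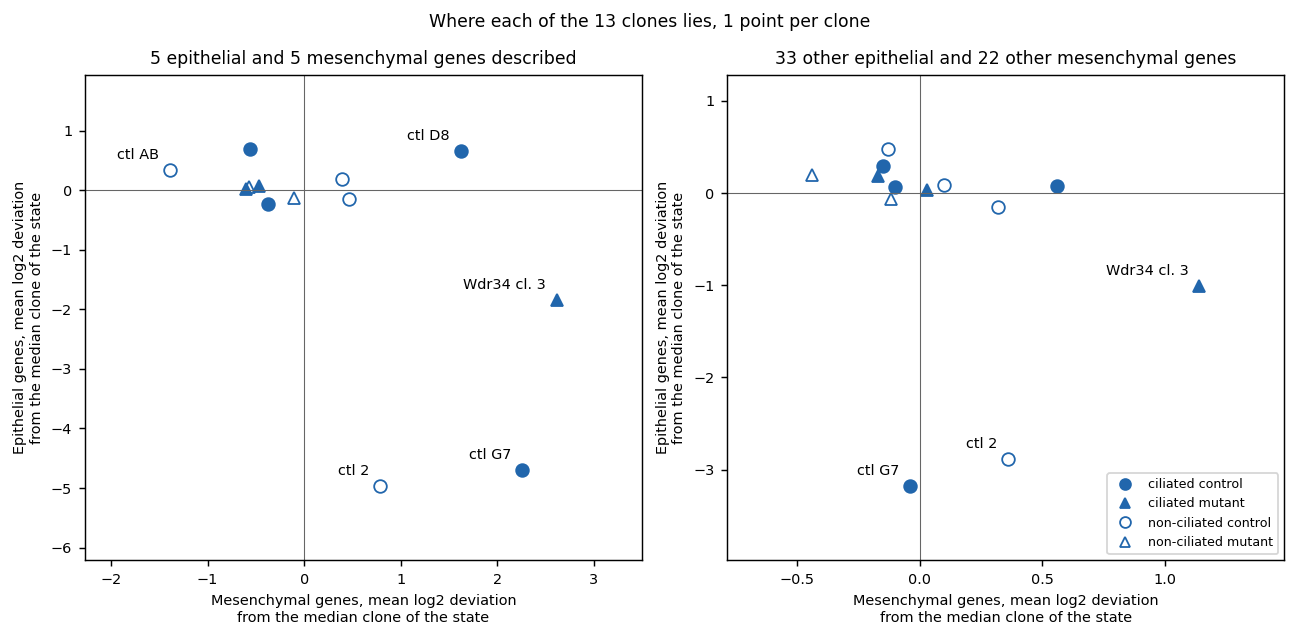
Mean log2 deviation of each clone from the median clone of its state, mesenchymal genes on the x axis and epithelial genes on the y axis, for the 10 genes described (left) and for other listed genes (right); 1 point is 1 clone. Control 2 and G7 lie lowest, at -4.97 and -4.70 in the left panel, and Wdr34 clone 3 lies to the right at -1.84; on the right panel G7 is low in epithelial genes with a mesenchymal mean of -0.04.

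The wider epithelial list fell with the keratins in both low control clones. In Wdr34 clone 3, 31 of 33 genes tested had negative values against a reference that included G7. The median log2 fold change there was -0.92, beside -0.04 over all genes. It was -0.01 to 0.96 in the other 10 clones, whose references held G7 or control 2. Of 34 listed genes 33 were tested; 10 fell and 0 rose in control 2, and 21 fell and 0 rose in G7, with median log2 fold changes of -2.82 and -3.30 beside -0.02 and -0.04 over all genes tested. In control 2, the tight junction gene Ocln fell by 7.46, Mal2, a transport protein of polarised cells, fell by 7.04 and the adhesion molecule Epcam fell by 6.55 (edgeR, BH-adjusted p = 0.0164, 0.0379 and 0.0318), and Cldn4, another tight junction gene, fell by 5.89 (adjusted p = 0.0359). In G7, Cldn4 fell by 8.51, Mal2 by 6.50 and Epcam by 5.77 (adjusted p = 0.0374, 0.00736 and 0.00768). Ovol2, a transcription factor of epithelial cells, had 0 counts in both clones, at least 51.8-fold lower in G7 than the mean of the other controls (called), taking 3 counts over the clone as the floor. Cdh1, which encodes E-cadherin, had 312 counts in control 2 and 1089 in G7, summed over 4 libraries, against 17210 to 29180 and 39083 to 48853 in the other controls, and was called in both. In each of the other 11 clones 0 of 33 genes were called; Cldn4 and Epcam ranged from -2.28 to 1.62 and from -0.97 to 1.35. The calls in control 2 and G7, whose fits share no library although the labels do not say whether their clones are distinct, had 71 genes in common, 56.8% of the 125 and 21.3% of the 333, of which 68 were lower in both; Krt7, Krt8 and Esrp1 and 10 genes of the epithelial list were among them.

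Few genes of the wider mesenchymal list were called. In control 2, 0 of 24 genes tested were called (5 at an unadjusted p under 0.05), with a median log2 fold change of 0.04. In G7, 1 of 20 rose and 1 fell, with a median of -0.65; 10 of the 20 were at an unadjusted p under 0.05, beside 2550 of 13818 genes. The gene that rose was Postn, which encodes the matrix protein periostin, with 2264 counts in G7 against 0 to 1 in the other ciliated controls; it also had 546 counts in control 2, against 0 to 11, and 389 in Wdr34 clone 3. The gene that fell was Snai3, a factor of the Snai family, with 7 counts against 252 to 354. Tnc, the matrix protein tenascin C, named after its values were seen, was not called; it was 255 ± 35.1 CPM in G7, 225 ± 27 in Wdr34 clone 3 and 179 ± 3.82 in control 2, against 2.95 to 41.9 in the other 10 clones. Sparc and Cdh2, the highest per kb among listed genes with a known length, had 0.42 (SE 0.50) and 0.78 (SE 0.35) in G7 and 0.33 (SE 0.25) and -0.39 (SE 0.63) in control 2. Of the other keratins, Krt80 fell by 1.43 in control 2 (edgeR, BH-adjusted p = 0.0409) and had -1.21 (adjusted p = 0.33) in G7. Krt20 had 0 counts in both. Against the mean of the other controls of the state it was at least 421-fold lower in G7 (called) and at least 410-fold lower in control 2 (not called). Those other controls ran from 9.13 to 25 CPM in ciliated and from 2.55 to 24.8 CPM in non-ciliated cells.

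Kidney lineage markers were mixed in the low clones. Of 11 collecting duct markers tested 0 were called, with 6 positive and 5 negative values in control 2 and 7 and 4 in G7. Tfcp2l1 was lowest of the 13 clones in control 2 (63 CPM) and Aqp3 lowest in G7 (0.039 CPM). Pax8, a nephron lineage factor, was 419 ± 22.3 CPM in G7, the highest of the 13 clones, with 32798 counts there and 21975 in control 2, summed over 4 libraries. The cadherin gene Cdh16 was 841 ± 15.6 in G7 and 266 ± 9.56 in control 2, within a range of 155 to 841 over clones. The 17 collecting duct markers, a sum in which abundant genes weigh most, came to 1760 to 1918 CPM in G7 libraries and 949 to 999 in control 2, above the other clones of their states. Of the 5 proximal tubule markers, the sum was 314 to 547 CPM in G7 and 290 to 313 in control 2, against 15.3 to 137 in all other clones; this was Lrp2, the endocytic receptor megalin, at 447 ± 106 and 272 ± 10.4 CPM, which was called in G7 (log2 fold change 4.28, SE 0.36, adjusted p by edgeR and BH = 0.0125), while Slc34a1 was 0 throughout. The 5 fibroblast markers summed to 1.09 to 1.59 CPM in G7 and 4.25 to 6.29 in control 2, near the 0.986 to 5.16 of the other clones except Wdr34 clone 3, which had 28.4 to 36.2, nearly all from Dcn at 29.2 ± 3.62 CPM. The 5 endothelial markers summed to at most 0.406 CPM in any library. Leukocyte markers reached 308 CPM in ciliated libraries, mostly Csf1r, which was called as higher in ciliated than in non-ciliated controls; they were 282 to 308 in G7 against 138 to 284 in the other ciliated controls and 48.9 to 53.6 in control 2 against 22.8 to 59.2. The part of these markers in the results was not tested.

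The main question of the study was the effect of the mutations, and here none of the 10 genes was called. For ciliated cells the study's text describes 3 control clones without naming them. All 4 labelled ciliated controls, G7 among them, entered here, so the sets of samples differ. In ciliated cells 0 of 9 genes tested were called between 3 mutant and 4 control clones, beside 0% of 13243 genes (edgeR; 148 genes, and 0 of the 9, at an unadjusted p under 0.05; DESeq2 called 3 genes, 0 of them among the 9). The log2 fold changes were -0.12 (SE 1.14) for Krt7, -0.44 (SE 1.05) for Krt8, -0.45 (SE 0.91) for Krt18, -1.12 (SE 0.97) for Krt19 and 0.06 (SE 1.06) for Esrp1. They were 0.49 (SE 1.47) for Vim, -1.16 (SE 0.70) for Fn1, 0.23 (SE 2.05) for Zeb1 and -0.37 (SE 0.98) for Zeb2. With SEs of this size, large differences in either direction could not be told from 0, above all for Zeb1 and Vim. The median over the 9 genes was -0.37 beside -0.01 over all genes. Exact 2-sided permutation of clone means of log2 CPM gave p = 0.2 to 1 over the 10 genes, where the smallest p possible is 0.0286. Means of logs weigh low clones more than the fit of sums does, and Krt7, Vim and Zeb1 then had 0.76, -0.17 and -0.58, of the opposite sign.

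These values moved with single clones. Without Wdr34 clone 3, Vim moved to -2.84 and Zeb1 to -5.02, and without G7 they moved to 2.02 and 2.89, without a call in either case. Without D8, Fn1 moved from -1.16 to -0.30. With single libraries as samples, DESeq2 called Fn1 as lower in mutants (log2 fold change -1.17, SE 0.37, BH-adjusted p = 0.0372), a test over technical replicates.

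In non-ciliated cells 0 of 9 genes were called between 2 mutant and 4 control clones, beside 0% of 13406 genes (edgeR; 582 genes, and 0 of the 9, at an unadjusted p under 0.05; DESeq2 called 36 genes, 0 of them among the 9). Zeb1 had the largest value, -2.36 (SE 1.32, edgeR, BH-adjusted p = 0.976), and Vim had -0.78 (SE 0.86). The other 7 lay between -0.14 and 0.59. The median was -0.10 beside 0.00 over all genes, and exact permutation gave p = 0.267 to 1, with a smallest possible p of 0.0667. Without control 2, Krt7, Krt8 and Krt18 changed sign, to -0.12, -0.10 and -0.30, and so did Zeb2, from -0.14 to 0.15. Fits of single libraries called Zeb1 (edgeR, log2 fold change -2.37, SE 0.67, BH-adjusted p = 0.0189), although the Wdr34 and Wdr60 clones differed from each other in Zeb1.

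The mutant effect was not called as different between states for any of the 10 genes, beside 0% of 13994 genes (interaction term over the 13 samples, in which a clone sequenced in both states counts as 2, edgeR; 136 genes, and 0 of the 10, at an unadjusted p under 0.05; DESeq2 called 1 gene, not among them). The largest difference was 2.60 (SE 2.87) for Zeb1, which turned to -2.65 without Wdr34 clone 3; Vim, positive with all clones, then turned to -2.06.

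**Figure D4:**
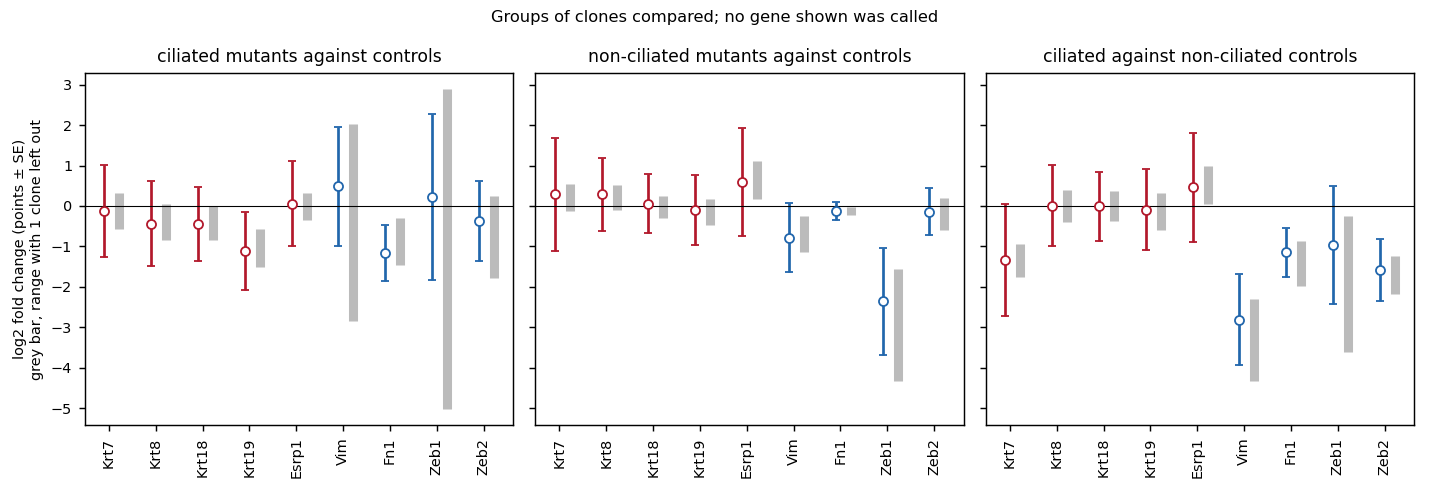
Log2 fold change with its SE (edgeR, clone sums) of 9 genes in 3 comparisons of groups of clones; grey bars give the range when 1 clone is left out. Zeb1 in ciliated mutants against controls runs from -5.02 to 2.89 as single clones are left out, and no point was called.

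Between states, the mesenchymal genes were lower in ciliated controls without passing the test. Of 9 genes 0 were called between the 4 ciliated and 4 non-ciliated control clones, beside 5.03% of 13119 genes (366 higher, 294 lower; edgeR; 1 of the 9 at an unadjusted p under 0.05; DESeq2 on clone sums called 984 genes, among them Vim). Vim was 50.2 ± 66.6 CPM (SD, n = 4 clones) in ciliated and 345 ± 257 in non-ciliated controls (log2 fold change -2.81, SE 1.12, adjusted p by edgeR and BH = 0.125). Zeb2 was 8.03 ± 7.3 and 23.1 ± 11.8 CPM (-1.59, SE 0.77, adjusted p = 0.192), and Fn1 1506 ± 1430 and 3273 ± 739 (-1.15, SE 0.61, adjusted p = 0.231). Krt7 was 245 ± 175 and 618 ± 419 CPM (-1.34, SE 1.39, adjusted p = 0.541), whereas Krt8, Krt18 and Krt19 had 0.01, -0.01 and -0.09, within the spread among clones. Exact permutation gave p = 0.0571 for Vim, 0.0857 for Fn1 and 0.143 to 0.771 for the rest, with a smallest possible p of 0.0286, and the clones of both states overlapped for each gene.

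Without G7 and control 2, an alternative chosen after seeing the data, 2 of 9 genes fell in ciliated controls, beside 8.08% of 13229 genes. Krt7 fell by 1.34 on the log2 scale (SE 0.21, edgeR, BH-adjusted p = 0.0107) and Vim by 3.81 (SE 0.98, adjusted p = 0.0361). Krt8 and Krt18 had 0.02 each. Without D8 alone, Fn1 was called (log2 fold change -1.97, SE 0.45, BH-adjusted p = 0.039), and without G7 alone, Vim (-4.33, SE 1.05, adjusted p = 0.039). In the listed genes with all 8 controls, 4 of 18 mesenchymal genes tested fell, S100a4 by 2.29, Tagln by 2.14, Twist2 by 1.93 and the N-cadherin gene Cdh2 by 1.42 (edgeR, BH-adjusted p = 0.0156, 0.0376, 0.0153 and 0.0458), with a list median of -1.15 beside 0.01 over all genes. Of 33 epithelial genes 1 rose, Cdh16 by 1.07 (adjusted p = 0.0411), with a list median of 0.59. Of 11 markers tested for the collecting duct, the line's own segment, 1 rose, again Cdh16, and 1 fell, Gata2 by 2.38 (edgeR, BH-adjusted p = 0.0182). This list had 7 positive and 4 negative values, with a median of 0.39. Cubn of the proximal tubule list, a partner of megalin, fell by 2.46 (adjusted p = 0.00698).

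As a description, the genes whose clone levels were most like each gene were sought over all genes (Pearson r of log2 CPM centred within each state, 13 clones, which share their control 2 and G7 extremes). Krt8 and Krt18 were nearest to each other (r = 0.996, and 0.99 over the 11 clones without those 2). Tnnt2 was next for both, with r = 0.986 for Krt8 and 0.989 for Krt18. Krt7 was most like Tbc1d2, Ocln and Ripk4 (0.995, 0.994 and 0.994) and Esrp1 most like Epcam, St14 and Ifnlr1 (0.997, 0.996 and 0.996). Over the 11 clones these were 0.91, 0.92 and 0.93 for Krt7 and 0.95, 0.87 and 0.93 for Esrp1. Krt19 was most like Gpd2, Gsdma and Ube2e1 (0.985, 0.982 and 0.978). Vim was most like Atoh8 and Olfml3 (0.952 and 0.948), and Vim itself was first for Zeb2 (0.924). Zeb1 was most like Ccdc126, 4930503L19Rik and Tnc (0.973, 0.965 and 0.951), and Fn1 most like Zbtb21, Pxdc1 and 9430076C15Rik (0.971, 0.960 and 0.958). Snai2, with its few counts, was not read further.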

How the data were processed

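The authors mapped the reads to GRCm38/mm10 with Rsubread in R 3.4.4 and deposited raw counts per gene symbol made with featureCounts, 1 file per library; strand and multimapping settings are not given in the sources used here. Groups came from the labels. Counts of the 4 technical libraries of each clone were summed and fitted in edgeR 4.0.16 (R 4.3.3, limma 3.58.1; quasi-likelihood, 2-sided, TMM, filterByExpr). A call needed a p under 0.05 after Benjamini-Hochberg (BH) adjustment over all genes tested and an absolute log2 fold change of at least 1. SEs are the log2 fold change over the square root of F. Single clones were fitted against the control clones of their state, and pairs of clones over single libraries at the adjusted p alone. Exact 2-sided permutation tests used clone means of log2(CPM + 0.1). CPM per kb used the length of the longest GENCODE transcript of each symbol that is linked to a RefSeq accession. Intervals and the floor of 3 counts for a gene at 0 cover counting error only. Alternatives were DESeq2 1.42.0, other size factors and filters, single libraries with and without a replicate block, and leaving out each replicate or clone.

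The 10 genes, the gene lists and the tests were chosen with earlier results of these data known. All 10 genes are named; of each list, the genes called (the 3 with the largest change where more than 5 were called) and the 2 with the highest CPM per kb; and for each of the 10 genes the 3 whose levels were most like it, of which 1 is not reported here. Cdh1, Lrp2, Csf1r, Dcn, Pax8 and the other markers given were named after their values were seen. Replicate numbers did not pair libraries: deviations of same-numbered libraries from their clone means had a median correlation of 0.0146 (-0.327 to 0.55), and 20 of 144 were over 0.1.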

Additional observations from a re-analysis of the deposited data

Results flagged for a closer look

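In sets of 4 (the control clones of a state, or the libraries of a clone), a value was picked out where its gap to the nearest other value took up more of the range than Dixon's 95% limit allows. Of 136 sets 20 were picked out, and chance alone picks out about 1 in 20 sets. Among control clones these were G7 in Krt7 (3.65 CPM) and Esrp1 (2.17), and control 2 in Krt7 (3.76), Krt8 (41), Krt18 (112), Krt19 (32) and Esrp1 (0.928).

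The other 13 were single libraries. Library 1 of control AB stood apart in 6 genes, high in Krt7 (1197 CPM), Krt18 (1270) and Krt19 (692) and low in Esrp1 (160), Fn1 (1283) and Zeb2 (3.8). Library 1 was low in A4 for Krt7 (411), in the non-ciliated Wdr60 clone for Krt8 (453) and in D8 for Vim (28.2). Krt19 was picked out in library 4 of the non-ciliated Wdr34 clone (245) and of control 3 (435), Fn1 in library 2 of Wdr34 clone 1 (571) and Zeb2 in library 2 of H12 (2.68). Leaving out library 1 of AB, as chosen after seeing the data, left 0 of these genes called between groups and 8 calls in single clones.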

How the results depend on the processing

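The count of the 10 genes called moved in the following settings, among others. Between ciliated mutants and controls it was 1 with single libraries in DESeq2 (Fn1) in place of 0. Between non-ciliated mutants and controls it was 1 (Zeb1) with single libraries in edgeR, in DESeq2 and with a replicate block. Between states it was 1 in DESeq2 on clone sums, 3 with single libraries in edgeR, in DESeq2 and with the replicate block, 0 to 1 when a clone or replicate was left out, and 2 without G7 and control 2. Over single clones it was 13 in DESeq2 on sums in place of 8, 26 and 33 with single libraries in edgeR and DESeq2, 22 with the replicate block, 9 with the loosest filter (Krt18 in G7 added), and 8 to 9 without a replicate. Leaving out a reference clone, as chosen after seeing the data, gave 3 to 6 calls in control 2 in place of 5 and 2 to 5 in G7 in place of 3, with all 5 epithelial genes in G7 without H12. Of pairs of clones 78.7% of tests were called, also with the replicate block, and 71.9 to 84% without a replicate. The replicate block changed no other call.

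Signs turned only for values that were not called. Leaving out a clone or replicate gave, for ciliated mutants, -0.58 to 0.33 for Krt7, -0.84 to 0.05 for Krt8, -0.83 to 0.01 for Krt18, -0.35 to 0.33 for Esrp1, -2.84 to 2.02 for Vim, -5.02 to 2.89 for Zeb1 and -1.77 to 0.24 for Zeb2. It gave, for non-ciliated mutants, -0.12 to 0.55 for Krt7, -0.10 to 0.52 for Krt8, -0.30 to 0.25 for Krt18, -0.48 to 0.17 for Krt19 and -0.60 to 0.20 for Zeb2. Between states it gave -0.39 to 0.40 for Krt8, -0.37 to 0.38 for Krt18 and -0.59 to 0.31 for Krt19. For the difference of the mutant effect it gave -0.85 to 0.05 for Krt7, -2.06 to 2.80 for Vim, -2.65 to 5.25 for Zeb1, -1.62 to 0.39 for Zeb2 and -0.46 to 3.73 for Snai2. Krt18 between states, at -0.01, was 0.02 with RLE size factors, in DESeq2 on sums and on libraries, 0.01 with the loosest filter and with the replicate block, 0.00 with single libraries in edgeR, and 0.04 without library 1 of AB. Without G7 and control 2, Esrp1 and Zeb2 in ciliated mutants were -0.35 and 0.24, Krt7, Krt8, Krt18 and Zeb2 in non-ciliated mutants -0.12, -0.10, -0.30 and 0.15, Krt18 between states 0.02 and Zeb2 in the difference 0.11. The cause was not tested. With 2 to 4 clones a group and spreads this wide, modest differences between groups were not detectable.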
